A study of Mus musculus with 6 samples.

Results

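Heat shock genes were examined in libraries labelled as oligodendrocyte precursor cells (OPCs), in 10 rows of the deposited table, picked by gene symbol alone from its 18211 genes. They comprise the inducible HSP70 genes Hspa1a and Hspa1b, the constitutive HSP70 gene Hspa8, the endoplasmic reticulum (ER) HSP70 gene Hspa5, the HSP90 genes Hsp90aa1 and Hsp90ab1, the co-chaperone genes Dnajb1 and Hsph1, the small heat shock protein gene Hspb1, and Hsf1, which encodes the transcription factor of the heat shock response. All 10 were found and all 10 passed the expression filter that left 13792 genes for testing.

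RNA was sequenced in 6 libraries of freshly isolated brain cells labelled as OPCs at postnatal day 7, 3 from wildtype mice and 3 from DISC1-Δ3 mice, all of the C57BL/6 strain. DISC1-Δ3 mice carried NG2-CreERTM and 1 floxed exon 3 allele of Disc1 (NG2-CreERTM:DISC1 exon3 fl/+), whereas wildtype mice carried no CreERT. Both groups received tamoxifen by gavage on 4 days, P4 to P7, and cells were collected by immunopanning with PDGFRα, a receptor on the OPC surface. The design thus compares a heterozygous deletion, driven in cells that use the NG2 (Cspg4) promoter, with animals that lack Cre. Cre and the deletion therefore cannot be told apart. NG2 is also made by pericytes. The labels do not say whether libraries came from separate animals or from pools, so p-values measure the spread between libraries, which may be technical.

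Heat shock proteins are chaperones: they bind unfolded protein chains, keep them from clumping and help them to fold. When a cell is stressed by heat, by proteins that misfold or by tissue dissociation, HSF1 is released from chaperones, forms trimers and binds heat shock elements, which are repeats of the unit nGAAn in alternating orientation, in front of the inducible genes. Hspa1a, Hspa1b, Dnajb1, Hsph1, Hspb1 and Hsp90aa1 are classical targets of this response, whereas Hspa8 and Hsp90ab1 are used at a high level by nearly every cell at rest, and Hspa5 (BiP) answers to the unfolded protein response of the ER through another element.

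Promoter sequence of members is shown to place matches to the heat shock elements and to the ER stress element. RefSeq windows (build GRCm38.p6, 250 bases before the start of transcription and the first 50 after it) were matched for 6 of the 10 members, namely Hspa1a, Hspa1b, Hspb1, Hspa5, Hsph1 and Dnajb1. All sequences are written 5′ to 3′ on the strand of the gene, and capitals mark matches to the heat shock element of 2 units (GAANNTTC or TTCNNGAA), to that of 3 units (GAANNTTCNNGAA on either strand, which contains the former) or, in Hspa5, to the ER stress element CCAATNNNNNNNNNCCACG on either strand.
Hspa1a, bases -120 to -1, chr17:34972157-34972276, minus strand: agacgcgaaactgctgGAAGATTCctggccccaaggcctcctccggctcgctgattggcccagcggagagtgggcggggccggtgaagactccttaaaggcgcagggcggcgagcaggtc
Hspa1b, bases -120 to -1, chr17:34959239-34959358, minus strand: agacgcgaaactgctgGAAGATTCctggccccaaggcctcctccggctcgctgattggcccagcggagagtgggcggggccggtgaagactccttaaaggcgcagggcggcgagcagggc
Hspb1, bases -130 to -31, chr5:135887789-135887888, plus strand: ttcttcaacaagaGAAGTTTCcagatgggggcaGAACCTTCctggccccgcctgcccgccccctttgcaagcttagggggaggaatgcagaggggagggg
Hspa5, bases -80 to -21, chr2:34772010-34772069, plus strand: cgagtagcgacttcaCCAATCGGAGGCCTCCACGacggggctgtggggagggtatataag
Hsph1, bases 34 to 50 from the first of its 2 annotated starts, chr5:149636287-149636303, minus strand: agaTTCTGGAAAGTTCt

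The promoters of Hspa1a and Hspa1b were nearly the same sequence: 119 of the 120 bases shown and 247 of the 250 bases before the start were identical (98.8%). Each held the same 2-unit element, 104 bases before the start. Hspb1 held 2 such elements, beginning 117 and 97 bases before its start, while Hsph1, which has 2 annotated starts, held one 33 bases before the start used above and a 3-unit element inside its transcribed part, at bases 37 to 49 from that start and 16 to 28 from the other. An ER stress element lay 65 bases before the start of Hspa5, and none of these letters was found in the windows of Dnajb1. Of all 32851 RefSeq windows of this length, 15.1% held a 2-unit element, 0.603% a 3-unit element and 0.119% an ER stress element, so that only the longer matches were uncommon. A match is a description of the sequence and not evidence of binding.

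The copies also share their transcripts. Hspa1a (chr17:34969359-34972156) and Hspa1b (chr17:34956429-34959238) are single-exon genes on the minus strand of chromosome 17. Of all 50-base stretches in the annotated transcripts of Hspa1a, the length of the reads, 58.8% occurred letter for letter in Hspa1b. In the other direction the share was 62.3%. Stretches shared with processed pseudogenes, copies of the mRNA that lie elsewhere in the genome, made up 64.4% of Hspa8 (Gm15459), 44.1% of Hsp90aa1 (Gm12346) and 48.8% of Hspb1 (Hsp25-ps1). Hspa5, Hsph1 and Hsf1 shared none with another gene. Reads that match several genes were divided between them by the authors' counting, and these pseudogenes are not rows of the table used here, so levels of Hspa1a and Hspa1b are also given below as a sum.

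Libraries held 13716619 to 16417219 counted reads, and the members took 1.32 to 1.34% of them in wildtype against 1.12 to 1.19% in DISC1-Δ3. Levels are given as RPKM, read counts divided by transcript length and by the library total, which the authors computed. Replicate 3 of DISC1-Δ3 stood apart from its group: comparing its counts with those of replicates 1 and 2 gave a chi-square of 5.39 and 4.99 for each degree of freedom, and the other 4 pairs of replicates gave 1.80 to 2.97. The labelled cell type was only part of what the RNA showed. All 12 OPC markers were detected (summed RPKM 566 to 588 in wildtype against 724 to 746 in DISC1-Δ3), yet the 12 microglia markers, none of them at 0, summed to 16671 to 17152 in wildtype against 11670 to 12089 in DISC1-Δ3. Microglia markers thus exceeded OPC markers 28.4- to 30.3-fold in wildtype against 16.1- to 16.2-fold in DISC1-Δ3. In such bulk RNA, fewer cells of a type and less RNA per cell cannot be told apart. Disc1 itself was lower in DISC1-Δ3 (3.34 to 3.81 RPKM against 2.44 to 2.86), but a count over the whole gene does not test for the loss of exon 3.

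The members spanned a wide range of levels, from Hspa8, near the top of the table, to Hsf1, at rank 4822 of 18211 genes in wildtype and 4425 in DISC1-Δ3. In wildtype, Hspa8 was highest at 1646 ± 69.1 RPKM (SD, n = 3), rank 42, followed by Hspa1b (1424 ± 50.8), Hspa1a (885 ± 10.9), Hsp90ab1 (831 ± 17.6) and Hspa5 (413 ± 17.6). Hspb1 (181 ± 9.38) and Hsp90aa1 (179 ± 7.74) came next, with libraries that overlapped, so that their order is not resolved. Dnajb1 (86.5 ± 3.34), Hsph1 (31.9 ± 1.03) and Hsf1 (15.1 ± 1.05) were lowest. Every other neighbour in this order was clear of the next in all 3 wildtype libraries. In DISC1-Δ3 the order differed at 1 place: Hsp90ab1 (920 ± 16.4 RPKM) ranked above Hspa1a (676 ± 16.5), again without overlap. The high rank of the inducible genes Hspa1a and Hspa1b, which together made up 39.7 to 42.3% of the summed RPKM of the members in wildtype against 33.6 to 35.9% in DISC1-Δ3, was thus seen in both genotypes.

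**Figure D1:**
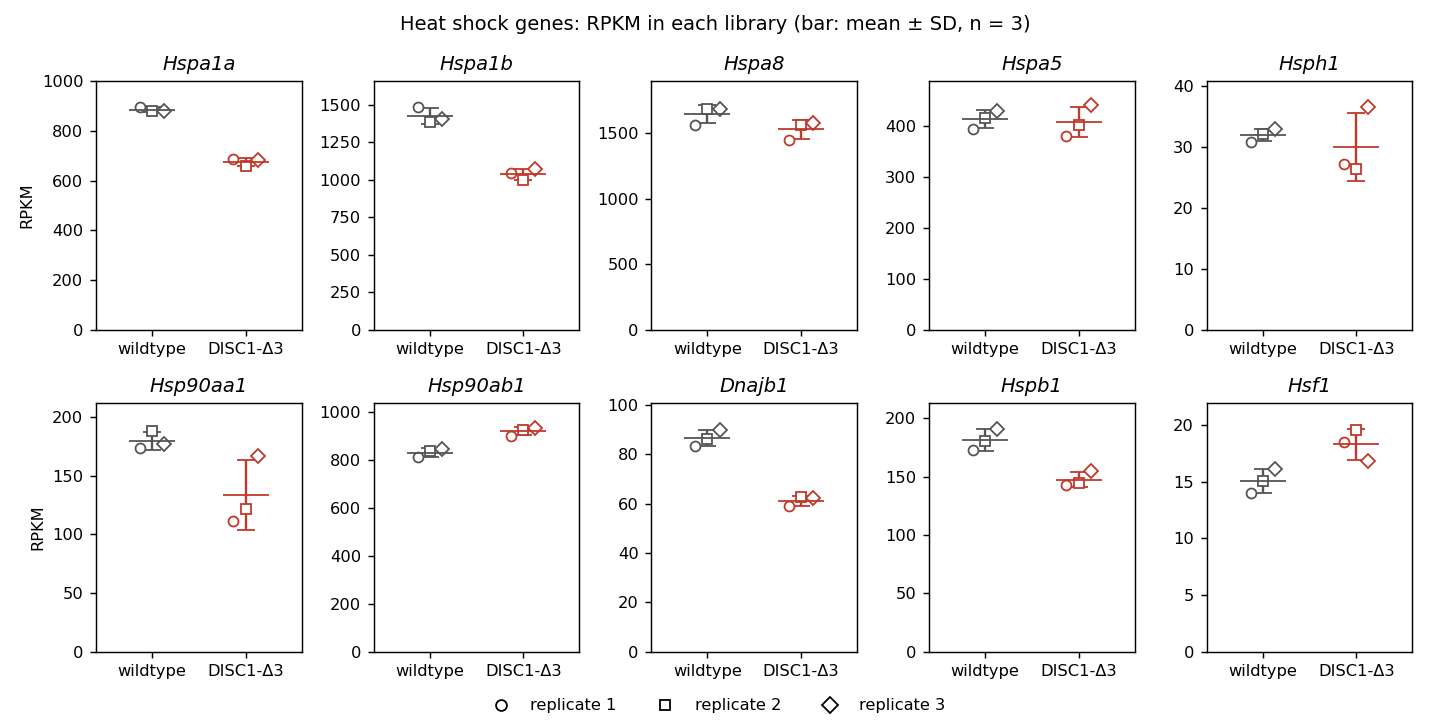
Level of each heat shock gene in RPKM (vertical axes, each starting at 0) in 3 wildtype (grey) and 3 DISC1-Δ3 (red) libraries; horizontal bars are means, whiskers SD and symbols replicates. Hspa1a, Hspa1b, Dnajb1, Hspb1 and Hsp90aa1 were lower in every DISC1-Δ3 library, Hsp90ab1 and Hsf1 higher in every one, and replicate 3 set the wide spread of Hsp90aa1 and Hsph1 in DISC1-Δ3.

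The main comparison asked which heat shock genes differ between the DISC1-Δ3 and wildtype libraries. By edgeR's quasi-likelihood test on counts (TMM scaling, Benjamini-Hochberg adjusted p under 0.05 over all 13792 tested genes), 6 of the 10 members fell in DISC1-Δ3: Dnajb1, Hspa1b, Hsp90aa1, Hspa1a, Hspb1 and Hspa8. The other 4, Hsph1, Hspa5, Hsp90ab1 and Hsf1, did not pass. Across all tested genes 39.9% passed, 20.4% as higher and 19.5% as lower, so a gene picked from this table often passes. None of the members passed as higher by edgeR with TMM or by DESeq2, and 1, Hsf1, had an unadjusted p under 0.05 in that direction. By edgeR with library totals 2 passed as higher, Hsp90ab1 and Hsf1. Log2 fold changes come from TMM-scaled counts and therefore lie somewhat below those read from RPKM, which has no such scaling. The median log2 fold change of the members was -0.28, beside 0.0075 over all tested genes. RPKM of the groups did not overlap for 7 of the 10, beside 52.0% of all tested genes.

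The inducible HSP70 genes carried the largest fall in absolute level. Hspa1b had 1482, 1387 and 1403 RPKM in the wildtype libraries and 1043, 995 and 1068 in DISC1-Δ3, a log2 fold change of -0.54 ± 0.043 (SE; adjusted p = 1.47e-08). Hspa1a had 898, 878 and 879 RPKM in wildtype against 686, 657 and 684 in DISC1-Δ3 (-0.47 ± 0.040, adjusted p = 3.81e-08). For both genes every DISC1-Δ3 library lay below every wildtype library, by far more than the spread within a group. With the counts of the pair added, which does not depend on how reads were split between the copies, their log2 fold change was -0.51 (95% interval -0.60 to -0.43, adjusted p = 2.29e-08), a level that decreased by 29.9%. Hspa1b took 61.3 to 62.4% of the reads of the pair in wildtype against 60.3 to 61.1% in DISC1-Δ3.

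Hspa8 (chr9:40801276-40805202, plus strand, 9 exons) encodes the HSP70 that folds new chains and strips clathrin from vesicles in unstressed cells, and it moved less. It had 1566, 1685 and 1686 RPKM in wildtype against 1450, 1562 and 1578 in DISC1-Δ3, with overlap between the groups. Its log2 fold change was -0.19 ± 0.046 (adjusted p = 0.00369), and it did not pass with scaling by library totals (adjusted p = 0.0593), by RPKM sums or in limma fits to RPKM. Within each library the level of Hspa1a plus Hspa1b over that of Hspa8, a ratio that no scaling between libraries alters, was 1.52, 1.34 and 1.35 in wildtype against 1.19, 1.06 and 1.11 in DISC1-Δ3. The inducible genes therefore stood lower against the constitutive gene in all 3 DISC1-Δ3 libraries (exact permutation test over libraries, two-sided, p = 0.1, the smallest that 3 against 3 can give).

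Hspa5 (BiP; chr2:34772090-34776529, plus strand), the HSP70 of the ER lumen whose ER stress element is shown above, had 394, 416 and 429 RPKM in wildtype against 381, 402 and 441 in DISC1-Δ3. The groups overlapped throughout. Its log2 fold change was -0.10, with a 95% interval of -0.20 to 0.01 (adjusted p = 0.125). Without DISC1-Δ3 replicate 3, its highest library, it passed at -0.15 (adjusted p = 0.00359).

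Of the HSP70 co-chaperones among the members, Dnajb1 fell and Hsph1 did not pass the test. Dnajb1 (chr8:83608175-83612653, plus strand, 3 exons), a J-domain protein (HSP40) that hands clients to HSP70 and drives its ATPase cycle, had 83.3, 86.2 and 90.0 RPKM in wildtype against 58.9, 62.7 and 62.2 in DISC1-Δ3. This was the largest relative fall of the 10 members by point estimate, -0.58 ± 0.046 on the log2 scale (adjusted p = 1.72e-08), or a decrease of 33.1%. Its 95% interval was -0.68 to -0.48. Its rank above Hspa1b (-0.63 to -0.45) and Hsp90aa1 (-0.71 to -0.32) is therefore not resolved. Relative to Hspa8 in the same library, Dnajb1 stood at 0.0511 to 0.0534 in wildtype against 0.0394 to 0.0406 in DISC1-Δ3, without overlap. Hsph1 (HSP110; chr5:149616843-149636498, minus strand), an exchange factor that releases ADP from HSP70, had 30.8, 32.1 and 32.8 RPKM in wildtype against 27.1, 26.4 and 36.4 in DISC1-Δ3, so that 2 libraries lay below and replicate 3 above all wildtype libraries. Its log2 fold change was -0.15 (95% interval -0.32 to 0.03, adjusted p = 0.166), and without replicate 3 it was -0.30 (adjusted p = 3.81e-05).

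Of the 2 cytosolic HSP90 genes, which encode closely related proteins, 1 fell. The inducible gene Hsp90aa1 (chr12:110691036-110696395, minus strand, 11 exons) had 174, 188 and 177 RPKM in wildtype against 112, 121 and 167 in DISC1-Δ3, and fell by 0.51 on the log2 scale (SE 0.092, adjusted p = 0.000252). Again replicate 3 lay nearest to wildtype: without it the fall was 0.70. Its coefficient of variation was 4.31% in wildtype against 22.2% in DISC1-Δ3, where the median tested gene had 6.88%. The constitutive gene Hsp90ab1 (chr17:45567778-45573261, minus strand, 11 exons) had 811, 838 and 844 RPKM in wildtype against 902, 924 and 934 in DISC1-Δ3, higher in every library, but with TMM scaling its log2 fold change was only 0.07 (95% interval -0.02 to 0.15, adjusted p = 0.211). With library totals and no TMM it was 0.15 (adjusted p = 0.00302). The ratio of Hsp90aa1 to Hsp90ab1 was 0.214, 0.224 and 0.209 in wildtype against 0.124, 0.131 and 0.179 in DISC1-Δ3, without overlap (exact permutation test, two-sided, p = 0.1).

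**Figure D2:**
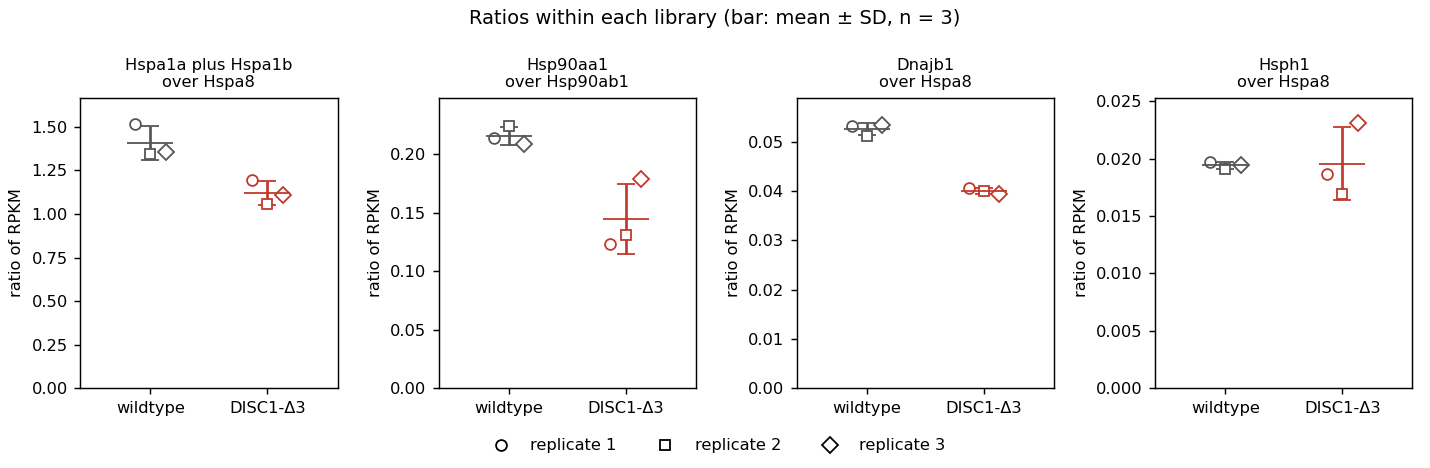
Ratios of RPKM within each library (vertical axes, from 0) for 4 pairs of heat shock genes, with replicates as symbols, means as bars and SD as whiskers (n = 3). The first 3 ratios, of inducible over constitutive genes, were lower in all DISC1-Δ3 libraries, whereas Hsph1 over Hspa8 overlapped because of replicate 3.

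Hspb1 (HSP25 in mice; chr5:135887919-135889563, plus strand), a small heat shock protein that holds unfolded proteins without ATP and binds actin, had 172, 180 and 191 RPKM in wildtype against 143, 145 and 155 in DISC1-Δ3. All 3 DISC1-Δ3 libraries lay below wildtype (-0.38 ± 0.051 on the log2 scale, adjusted p = 1.23e-05). Hspb1 is also used by vessel cells, and the summed RPKM of 10 endothelial markers stood at 129% and that of 10 pericyte and smooth muscle markers at 140% of wildtype in DISC1-Δ3. Their part in the level of Hspb1 was not tested.

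Hsf1 (chr15:76477362-76501155, plus strand) did not pass the test. It had 14.02, 15.08 and 16.11 RPKM in wildtype against 18.5, 19.6 and 16.9 in DISC1-Δ3, higher in every library, with a log2 fold change of 0.20 (95% interval 0.03 to 0.37) and an adjusted p of 0.0534, just outside the threshold. With library totals it was 0.29 (adjusted p = 0.00844), and it also passed without DISC1-Δ3 replicate 3 (0.26, adjusted p = 0.00569) and without wildtype replicate 3 (0.26, adjusted p = 0.0460). Since HSF1 is governed mainly at the protein level, its mRNA is no measure of its activity. Among its relatives, Hsf2, a second heat shock factor that can form trimers with HSF1, rose (4.09 ± 0.135 against 5.62 ± 0.469 RPKM, log2 fold change 0.34, adjusted p = 0.0178). Hsbp1, which encodes a small protein that binds HSF1 trimers, rose by 0.14 (adjusted p = 0.0284), with 132 to 138 RPKM in the wildtype libraries and 152 to 163 in DISC1-Δ3. Hsf4 was listed at 0.13 to 0.40 RPKM and was not tested.

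**Figure D3:**
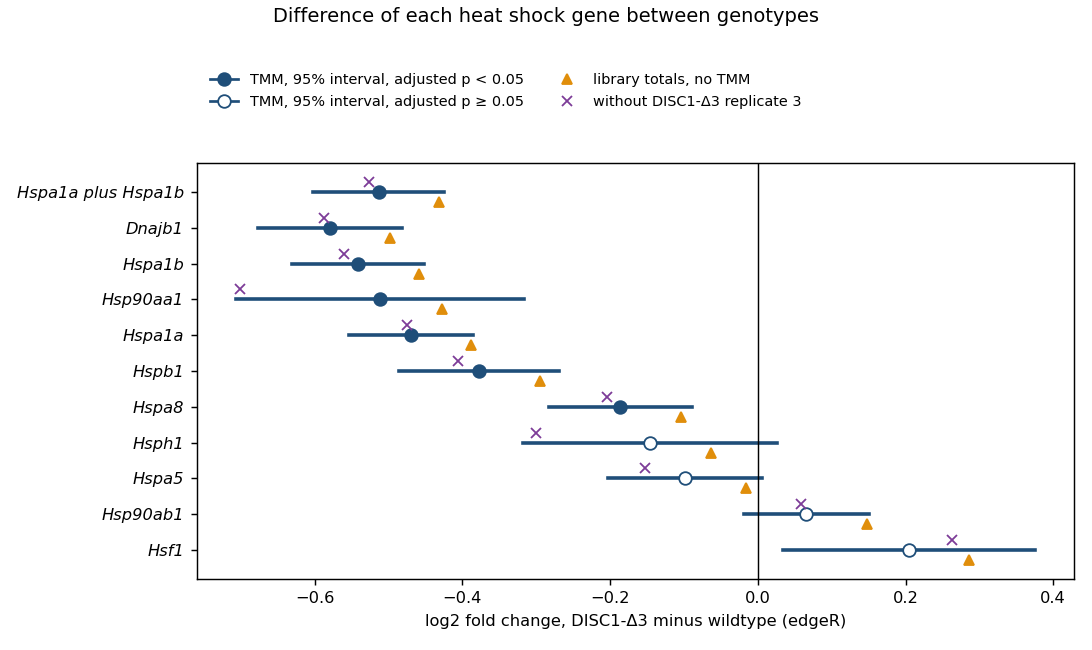
Log2 fold change (DISC1-Δ3 minus wildtype, horizontal axis) of each heat shock gene and of Hspa1a plus Hspa1b, from edgeR with TMM scaling and its 95% interval; filled circles had an adjusted p under 0.05. Triangles (library totals) shifted every gene to the right, leaving the 5 largest falls well below 0, and crosses (without DISC1-Δ3 replicate 3) shifted Hsp90aa1 and Hsph1 most.

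The scaling matters for genes near 0. TMM factors were 0.970 to 0.973 in wildtype against 1.02 to 1.04 in DISC1-Δ3, so that with library totals alone each member's log2 fold change was higher and the median over all tested genes was 0.090. The share of calls in the higher direction was then 69.1%, against 51.1% with TMM. Dnajb1, Hspa1b, Hspa1a, Hsp90aa1 and Hspb1 passed as lower under each of the 15 alternative settings, while Hspa8, Hspa5, Hsph1, Hsp90ab1 and Hsf1 each crossed the threshold under at least 1 of them and kept their sign.

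The partners of HSP70 and HSP90 were described from lists of known members. Of 21 other HSP70 genes and HSP70 co-chaperones, 4 passed as higher and 1 as lower (median log2 fold change 0.09), and 3 passed in all without DISC1-Δ3 replicate 1, DISC1-Δ3 replicate 2 or wildtype replicate 2. The gene that fell was Bag3, an HSF1-driven exchange factor for HSP70 that feeds selective autophagy, at 75.2 ± 2.86 RPKM in wildtype against 57.9 ± 2.73 in DISC1-Δ3 (-0.46, adjusted p = 6.51e-07), a fall of the same order as that of Hspa1a. Those that rose included Hspa2 (0.39, adjusted p = 0.000845), Hspa14 (0.24) and Grpel1 (0.23), the exchange factor for mitochondrial HSP70. Of 17 other HSP90 genes and HSP90 co-chaperones, 3 passed as higher and 2 as lower (median 0.11). Stip1 (HOP), which links HSP70 to HSP90, rose from 54.8 ± 1.23 to 76.4 ± 0.776 RPKM (0.40, adjusted p = 1.65e-06), and Fkbp4 (0.22) and Ahsa1 (0.21), the activator of the HSP90 ATPase, rose as well. Fkbp5, the steroid receptor co-chaperone that glucocorticoids induce, fell from 44.9 ± 1.22 to 15.1 ± 0.298 RPKM (-1.66, adjusted p = 2.34e-14), more than any of the 10 members.

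Of 42 tested J-domain genes besides Dnajb1, 9 were higher (21.4%) and 5 lower (11.9%), with a median of 0.0072; without wildtype replicate 1, 9 passed in all. Dnajb4, a close relative of Dnajb1, fell by 0.57 (adjusted p = 0.000485), with 12.6, 11.5 and 11.6 RPKM in wildtype against 7.30, 7.56 and 10.6 in DISC1-Δ3, where replicate 3 was again the highest. Dnajc16 (-0.49) and Dnajc13 (-0.44) fell too, whereas Dnajc6, the auxilin that recruits HSC70 to clathrin, rose by 0.58, Dnaja3 by 0.35 and Dnajb5 by 0.32. None of the 7 tested small heat shock protein genes besides Hspb1 passed by edgeR with TMM or by DESeq2, whereas 3 passed by edgeR with library totals. Of the 7, 1 had an unadjusted p under 0.05 with TMM. Their summed RPKM, 74.0 to 77.4 in wildtype against 90.2 to 94.1 in DISC1-Δ3, was higher in every DISC1-Δ3 library, unlike that of Hspb1.

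Among 14 mitochondrial chaperones and proteases, 3 were higher (Dnaja3, Grpel1 and Clpb) and 1 lower (median 0.07); 7 passed in all without DISC1-Δ3 replicate 3, and 2 without DISC1-Δ3 replicate 1 or 2 or without wildtype replicate 1 or 2. Hspe1, the HSP10 lid of the mitochondrial chaperonin, fell by 0.37 (114 ± 11.4 against 93.7 ± 6.30 RPKM, adjusted p = 0.00057). Of 14 tested genes of the cytosolic chaperonin TRiC and of prefoldin, which fold actin and tubulin, 4 were higher, led by Cct3 (0.19), Cct6a (0.16) and Cct5 (0.16), and 1 was lower (median 0.06); 2 passed in all without DISC1-Δ3 replicate 2, and 3 without DISC1-Δ3 replicate 1 or without wildtype replicate 2. Among ER genes lower calls were more numerous: 12 of 30 ER chaperones and foldases were lower and 4 higher (median -0.11), while 7 passed in all without wildtype replicate 2 and 9 without wildtype replicate 3. Erp29 (-0.30), Edem1 (-0.28) and Sdf2l1 (-0.28) fell, and Ero1l (0.27), Hyou1 (0.17), the ER exchange factor of BiP, and Dnajb11 (0.15) rose, by small amounts against those of the inducible cytosolic genes.

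Of 18 sensors and stress factors of the unfolded protein response, 6 were higher and 4 lower (median -0.01). Chac1 (1.39), Trib3 (1.43) and Asns (0.66), genes that ATF4 drives when amino acids run short, rose from low levels. Chac1 had 2.11 ± 0.621 RPKM in wildtype against 5.78 ± 0.480 in DISC1-Δ3. Trib3 rested on few reads, 9 to 11 in the wildtype libraries against 19 to 35 in DISC1-Δ3. Cebpb (-0.43), Ppp1r15a (GADD34, -0.37) and Ddit4 (-0.27) fell.

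Genes that HSF1 induces on heat shock, besides the 10 members, went both ways. Of 21 such genes, 6 were higher (28.6%) and 5 lower (23.8%), beside 20.4% and 19.5% of all tested genes. Their median log2 fold change was 0.13. Their summed RPKM was lower in every DISC1-Δ3 library (4608 to 4741 against 4922 to 5016 in wildtype), but it overlaps between the genotypes with Atf3 taken out. The falling ones by the naming rule were Dnajb4, Atf3 (-0.50, 634 ± 18.1 against 475 ± 21.8 RPKM) and Bag3; the rising ones were Stip1, Serpinh1 (0.36), the collagen chaperone HSP47, and Fkbp4. With library totals 12 of the 21 were higher and 5 lower. Since Atf3 is also an immediate-early gene, that list is given beside it: of 25 immediate-early genes, which respond within minutes to dissociation and other stimuli, 12 were lower and 8 higher (median -0.10). Btg2 (-0.86), Socs3 (-0.83) and Ier3 (-0.79) fell from over 100 RPKM, while Fosl1 (1.73), Nr4a3 (1.20) and Nr4a2 (1.18) rose from under 1.5 RPKM.

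**Figure D4:**
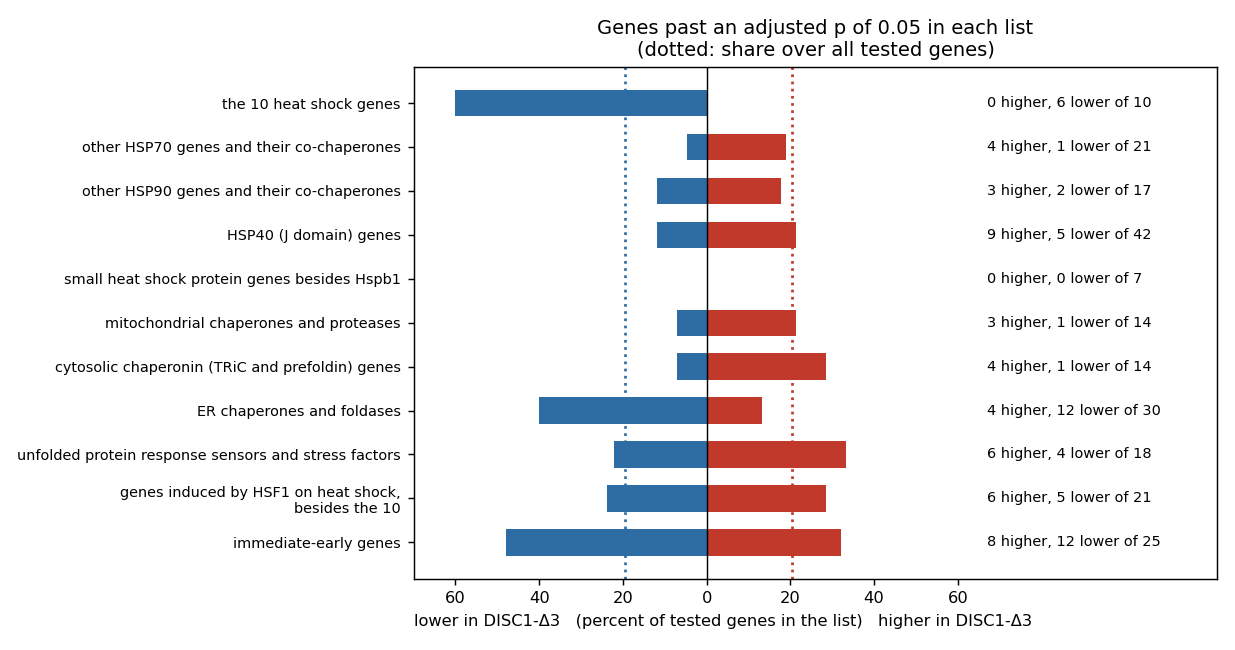
Percent of the tested genes in each list (rows) that passed an adjusted p of 0.05 as lower (blue, to the left) or higher (red, to the right) in DISC1-Δ3, with counts at the right; dotted lines are the shares over all tested genes, 19.5% lower and 20.4% higher. The 10 heat shock genes had the highest lower share of the lists shown, 60%, and no higher call, and the other chaperone lists outside the ER stayed below the dotted line for lower calls. Cell type marker lists are not drawn. Their lower shares were 100% for microglia, 66.7% for maturing oligodendrocyte and 62.5% for astrocyte markers, and at most 8.33% for the others.

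Summed levels of gene and marker lists also differed between the genotypes. The summed RPKM of the 10 members in DISC1-Δ3 was 87.1% of wildtype and that of the other HSF1-induced genes 93.9%. That of the immediate-early genes was 78.6% and that of the 12 microglia markers 70.6%. Within each of these lists every DISC1-Δ3 library lay below every wildtype library. The member sum holds Hspa1a and Hspa1b, 39.7 to 42.3% of it in wildtype, and without them it overlaps between the genotypes. Likewise the HSF1-induced sum overlaps without Atf3, which is also counted in the immediate-early sum. All 12 microglia markers passed as lower, including Tmem119 (-0.65), Cx3cr1 (-0.39) and P2ry12 (-0.23), with a median of -0.57 over the list. Of 12 maturing oligodendrocyte markers 8 were lower (median -0.46), with Mog at -0.45 and Mbp at -0.16, and their sum was 92.1% of wildtype. Of 8 astrocyte markers 5 were lower and 2 higher (sum 95.9% of wildtype); Aqp4 (-0.28) and Aldh1l1 (-0.30) fell and Gfap (0.34) rose. OPC markers were higher for 8 of 12, among them Pdgfra (0.48), Cspg4 (0.46) and Olig1 (0.31), with a sum at 128% of wildtype. Of 10 neuron markers 7 were higher, including Snap25 (0.48), Rbfox3 (0.41) and Tubb3 (0.19), and their sum was 120% of wildtype. Of 10 endothelial markers 4 were higher, with Cldn5 at 0.39, Flt1 at 0.29 and Pecam1 at 0.04 (adjusted p = 0.669), and of 10 pericyte and smooth muscle markers 9 were higher, including Rgs5 (0.50), Kcnj8 (0.44) and Pdgfrb (0.21).

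Set against the microglia marker sum of the same library, the members differed. Hspa1a plus Hspa1b stood at 14.3, 13.5 and 13.3% of that sum in wildtype against 14.4, 13.7 and 15.0% in DISC1-Δ3, and Dnajb1 at 0.4999 to 0.5247% against 0.4904 to 0.5328%. These genes thus overlapped between the genotypes once divided by this sum of 12 markers. Hsp90aa1 stood at 1.04, 1.12 and 1.03% in wildtype against 0.929, 1.004 and 1.43% in DISC1-Δ3, so that replicates 1 and 2 lay below all wildtype libraries and replicate 3 above them. The remaining members, Hspb1, Hspa8, Hsp90ab1, Hspa5, Hsph1 and Hsf1, were higher in every DISC1-Δ3 library by this measure: Hsp90ab1 was at 4.86 to 4.99% in wildtype against 7.511 to 8.003% in DISC1-Δ3. The divisor itself stood at 70.6% of wildtype in DISC1-Δ3, so a gene of unchanged RPKM also comes out higher. The share of all tested genes that does so was not counted, and being higher here is no trait of these members. The ratio to the microglia marker sum was formed after the values had been seen, and it is a description only. It also depends on the markers summed, in which abundant markers weigh most. Log2 fold changes were -0.65 for Tmem119, -0.39 for Cx3cr1 and -0.23 for P2ry12, against -0.51 for Hspa1a plus Hspa1b. Cx3cr1 and P2ry12 thus fell less than the Hspa1a and Hspa1b sum, and the overlap need not hold for each marker alone. The part of microglia, of other cell types or of the stress of isolation in the level of the heat shock genes was not tested.

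**Figure D5:**
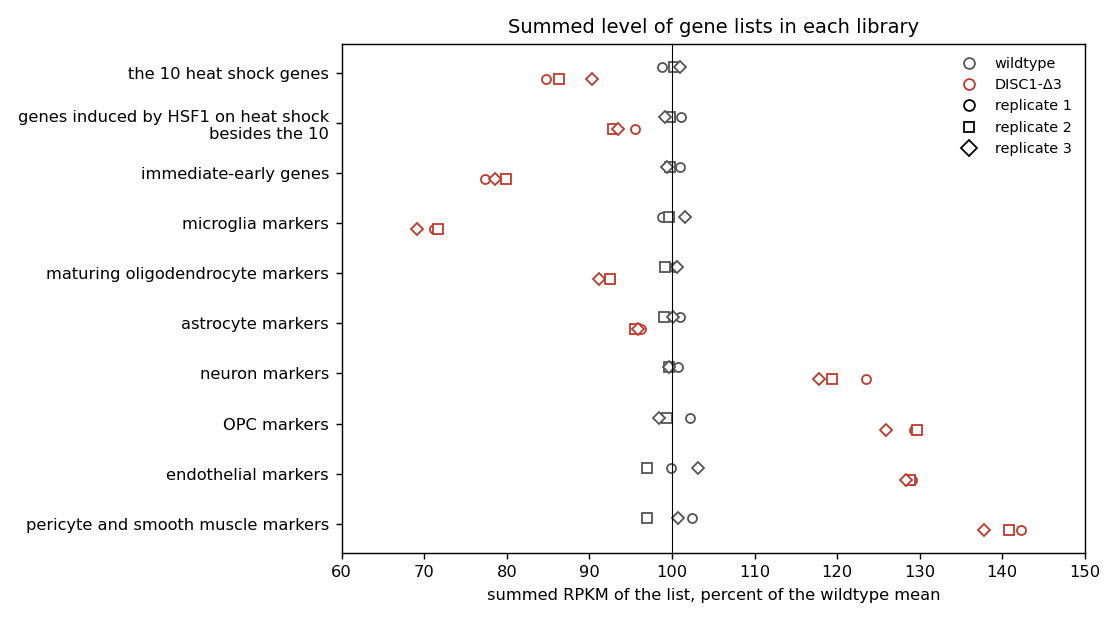
Summed RPKM of gene lists in each library as percent of the wildtype mean (horizontal axis; grey, wildtype; red, DISC1-Δ3; symbols, replicates). In DISC1-Δ3 the heat shock genes (84.7 to 90.3%) lay below 100%. The same held for the other HSF1-induced genes, the immediate-early genes, and the microglia, maturing oligodendrocyte and astrocyte markers. The OPC, neuron, endothelial and pericyte markers lay above 100%.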

How the data were processed

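Poly(A) RNA was read as single-end 50-base reads on a BGISEQ platform. The submitters' processing notes name Bowtie2 2.2.5 and mm10; the counter is not given in the sources used here. The authors deposited expected counts (90.2% whole numbers, tolerance 1e-09), in which reads matching several genes are divided, and RPKM, computed from counts, transcript length and library total. The 4 columns that average a group were left aside.

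Expected counts were rounded and tested with edgeR 4.0.16 (quasi-likelihood, TMM) in R 4.3.3, with genotype as the only term, over genes with RPKM of at least 0.5 in at least 3 libraries. Standard errors are the fold change over the root of F, and p-values are two-sided. Library totals are given as depth; PCR copies could not be told from separate molecules, so depth bounds counting error only. Alternatives were DESeq2 1.42.0, median-of-ratios size factors, library totals, RPKM sums, no filter, RPKM of at least 1, a replicate block, limma 3.58.1 on log2(RPKM + 1) and log2(RPKM + 0.1), and each library left out. Scripts were tested on simulated data.

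Named were the members, Hsf2, Hsf4, Hsbp1, Disc1, Pdgfra and Cspg4, the first 3 genes of each marker list and, from other lists, up to 3 rises and 3 falls with the largest changes among passing genes that did not overlap. A gene that this rule names is left out here. Members and lists were chosen with earlier results of these data known. Shared 50-base stretches were counted in GENCODE transcripts and promoter windows came from RefSeq.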

Additional observations from a re-analysis of the deposited data

How the results depend on the processing

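Of the 10 heat shock genes and the sum of Hspa1a and Hspa1b, none reversed under the 15 alternatives. Hspa8 missed the threshold at -0.10 with library totals (adjusted p = 0.0593) and RPKM sums (-0.10, 0.0509), and at -0.11 in limma with a pseudocount of 1 (0.0896) or 0.1 (0.0873). In the same order Hsp90ab1 passed at 0.15, 0.15, 0.15 and 0.15 (adjusted p 0.00144 to 0.00686) and Hsf1 at 0.29, 0.29, 0.26 and 0.28. Hsf1 also passed with a filter at an RPKM of 1 (0.21, adjusted p = 0.0498). Leaving out 1 library gave 0.13 to 0.26 for Hsf1, -0.15 to -0.070 for Hspa5, -0.30 to -0.086 for Hsph1 and -0.70 to -0.42 for Hsp90aa1; for the latter 3 the largest shift came without DISC1-Δ3 replicate 3.

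The members called higher were 2 with library totals, RPKM sums and both limma fits, 1 with the filter at 1, and 0 to 1 with a library left out. Under library totals, RPKM sums, limma with 1 and limma with 0.1, the calls were 8, 9, 9 and 9 among other HSP70 genes, 10, 9, 9 and 9 among HSP90 genes, 3, 3, 4 and 4 among small heat shock protein genes, 9 each among mitochondrial genes, and 10 each among ER chaperones. Chaperonin genes had 8, 8, 7 and 7 higher calls and 0 lower, and 8 calls in all with library totals and with RPKM sums. Of the HSF1-induced genes 12, 13, 11 and 10 were higher, and 17 and 18 were called in all with totals and RPKM sums. DESeq2 called 3 other HSP70 and 2 mitochondrial genes. With a library left out, calls ranged from 3 to 6 (other HSP70), 4 to 7 (HSP90), 9 to 18 (HSP40), 0 to 2 (small heat shock proteins), 2 to 7 (mitochondrial), 2 to 5 (chaperonin; 1 to 4 higher, 0 to 1 lower), 7 to 18 (ER) and 10 to 12 (HSF1-induced). The cause of these shifts was not tested, beyond the shared scaling.

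With the replicate number as a block, Hspa5 passed at -0.10 (adjusted p = 0.0413), small heat shock protein genes had 1 call, and 5429 genes passed in place of 5498. Same-numbered libraries deviated together with correlations of 0.117, 0.030 and -0.034, so the numbers were not taken as pairs. The block changed no other call among the members. Depth was ample for the members: the lowest count of any was 383 reads, for Hsf1.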
